A study of Homo sapiens with 18 samples.

Results

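Mitochondrial ribosomal proteins were examined as 1 family in RNA sequencing of MV4-11 and THP1 cells treated with IACS. The members were the symbols that begin with MRPL or MRPS, then a number and at most 1 of the letters A, B and C, with a mean TPM (transcripts scaled for length and to a fixed library total) of 1 or more over all libraries. Of the 45372 symbols in the expression table, 78 met this rule, 49 with an MRPL symbol (large subunit) and 29 with an MRPS symbol (small subunit). MV4-11 and THP1 (written THP-1 in the labels) are established human acute myeloid leukemia lines with a rearranged *KMT2A* gene. Each line was given DMSO, the vehicle, or 50 nM IACS-010759 (IACS, an inhibitor of complex I of the respiratory chain) for 8 h or 24 h, with 3 libraries from independent replicates in each of the 6 groups. The same 3 DMSO libraries of a line served as the control for both times, and the sources used here do not say at which time the DMSO cells were taken, so that time in culture and the inhibitor cannot be told apart where it differed. Each line is a single cell line, so that a difference between the lines is a difference between these 2 lines and not between kinds of leukemia.

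The mitochondrial ribosome, or mitoribosome, sits at the inner membrane and makes only the proteins encoded in mitochondrial DNA, which are core subunits of the respiratory chain and of ATP synthase. Its RNAs come from mitochondrial DNA (*MT-RNR1* in the small subunit, *MT-RNR2* in the large subunit), whereas all of its proteins are encoded in the nucleus, translated in the cytosol and imported. Some of these proteins descend from the bacterial ribosome and others are found only in mitochondria, and acute myeloid leukemia cells are known to be sensitive to drugs that block mitochondrial translation. By their place in the ribosome structure, 51 members belong to the large and 26 to the small subunit, since *MRPS30* (mL65) and *MRPS18A* (mL66) are large-subunit proteins despite their names. *MRPS36*, also called KGD4, is a part of the 2-oxoglutarate dehydrogenase complex and was kept only because the naming rule took it. Among the members, 45 were classed as having a bacterial homolog and 31 as specific to mitochondria. The second class holds *MRPS18A* and *MRPS18B*, although they are paralogs of *MRPS18C*, which is in the first.

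The genes of the family were spread over 21 chromosomes, with 8 on each of chromosomes 1, 2 and 17. The exons of 41 members overlapped those of another gene, on the other strand for 30 of them, and the library kit does not mark strand, so reads in the shared bases could not be told apart. Another coding gene started in the opposite direction within 1000 bases of the start of 17 members (21.8%), compared with 8.54% of 20046 coding genes. Promoter sequence from RefSeq (GRCh38.p14, 250 bases before to 50 bases after the start) was found for 69 members, and 4 short motifs were searched on both strands. The YY1 motif, AAGATGGC, was in 20 of the 69 promoters (29%) and in 3.03% of 27305 promoters of all genes (3.91% of those of coding genes). The ETS motif, CCGGAAGT, was in 15.9% of member promoters, 4.44% of all promoters and 6.19% of coding promoters. The NRF1 motif, GCGCA, any base, then GCGC, was in 11.6%, 6.28% and 8.58%, in the same order. For the E-box CACGTG these shares were 8.7%, 7.43% and 8.88%, and 34 members had none of the 4 motifs. These are matches of letters and not measured binding sites.

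The YY1 letters were often at the start of translation. In 15 of the 69 members (21.7%) they lay in the 50 bases after the start of transcription, as compared with 1.39% of all promoters and 2.18% of coding promoters, and in 12 of these 15 the ATG inside AAGATGGC was the annotated start codon. The first sequences shown are of members that carry these letters just after the start and to which the results below return: *MRPL51* and *MRPS18B* were among the members that differed most between the lines, *MRPS18A* is a paralog of *MRPS18B*, *MRPL20* and *MRPL22* were among the lower values at 24 h in THP1, and *MRPS30* and *MRPS24* stood near no difference between the lines. Each is a window of 30 bases read 5′ to 3′ on the strand of the gene (GRCh38.p14, RefSeq), with the motif in capitals.
MRPL51 (chr12:6493223-6493252, minus strand): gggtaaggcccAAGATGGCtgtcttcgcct
MRPS18B (chr6:30617852-30617881, plus strand): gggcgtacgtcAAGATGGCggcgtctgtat
MRPS18A (chr6:43687764-43687793, minus strand): gtaggtttttgAAGATGGCggccctcaagg
MRPL20 (chr1:1407260-1407289, minus strand): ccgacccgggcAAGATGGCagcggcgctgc
MRPL22 (chr5:154941093-154941122, plus strand): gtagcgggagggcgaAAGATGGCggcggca
MRPS30 (chr5:44808949-44808978, plus strand): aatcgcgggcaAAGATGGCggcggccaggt
MRPS24 (chr7:43869480-43869509, minus strand): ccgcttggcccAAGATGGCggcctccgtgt

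For comparison, NRF1 and ETS motifs that began before the start of transcription are shown for 4 other members. The NRF1 letters of *MRPL17* (bL17m) and *MRPS9* (uS9m) and the ETS letters of *MRPL16* (uL16m) and *MRPS34* (mS34) are printed in the same way, and in *MRPS9*, *MRPL16* and *MRPS34* the motif reads on the strand opposite to the gene.
MRPL17, NRF1 (chr11:6683402-6683431, minus strand): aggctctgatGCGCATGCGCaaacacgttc
MRPS9, NRF1 (chr2:105038019-105038048, plus strand): cgcgccattaGCGCCTGCGCcgtctctagg
MRPL16, ETS (chr11:59810767-59810796, minus strand): gagtgaacacaACTTCCGGccccactgagc
MRPS34, ETS (chr16:1773136-1773165, minus strand): ctcttccggtgACTTCCGGccggaccgctg

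Every member was expressed in both lines. The mean TPM over all libraries ran from 6.33 for *MRPL46* (mL46) to 128.9 for *MRPS34*, a ratio of 20.4, with a median of 31.6 as compared with 11.8 over the 14117 genes whose own mean reached 1 TPM. Of the 78 members, 73 lay above that median of all genes. The lowest value in any library was 3.65 TPM for *MRPL22*, which lines the exit tunnel of the large subunit, and the highest was 182 TPM for *MRPL37* (mL37), both in THP1. The most abundant members after *MRPS34* were *MRPL3* at 108.4 TPM, whose bacterial homolog reaches towards the catalytic centre, *MRPL37* at 106.1, *MRPL18* (uL18m) at 97.1 and *MRPL41* (mL41) at 92.4. The least abundant after *MRPL46* were *MRPL22* at 7.07 TPM, *MRPL48* (mL48) at 8.57, *MRPS33* (mS33) at 9.01 and *MRPS11* (uS11m) at 10.8. TPM is a level per length, so these levels can be set side by side, but a level of RNA says nothing about the amount of the protein in the particle.

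**Figure D1:**
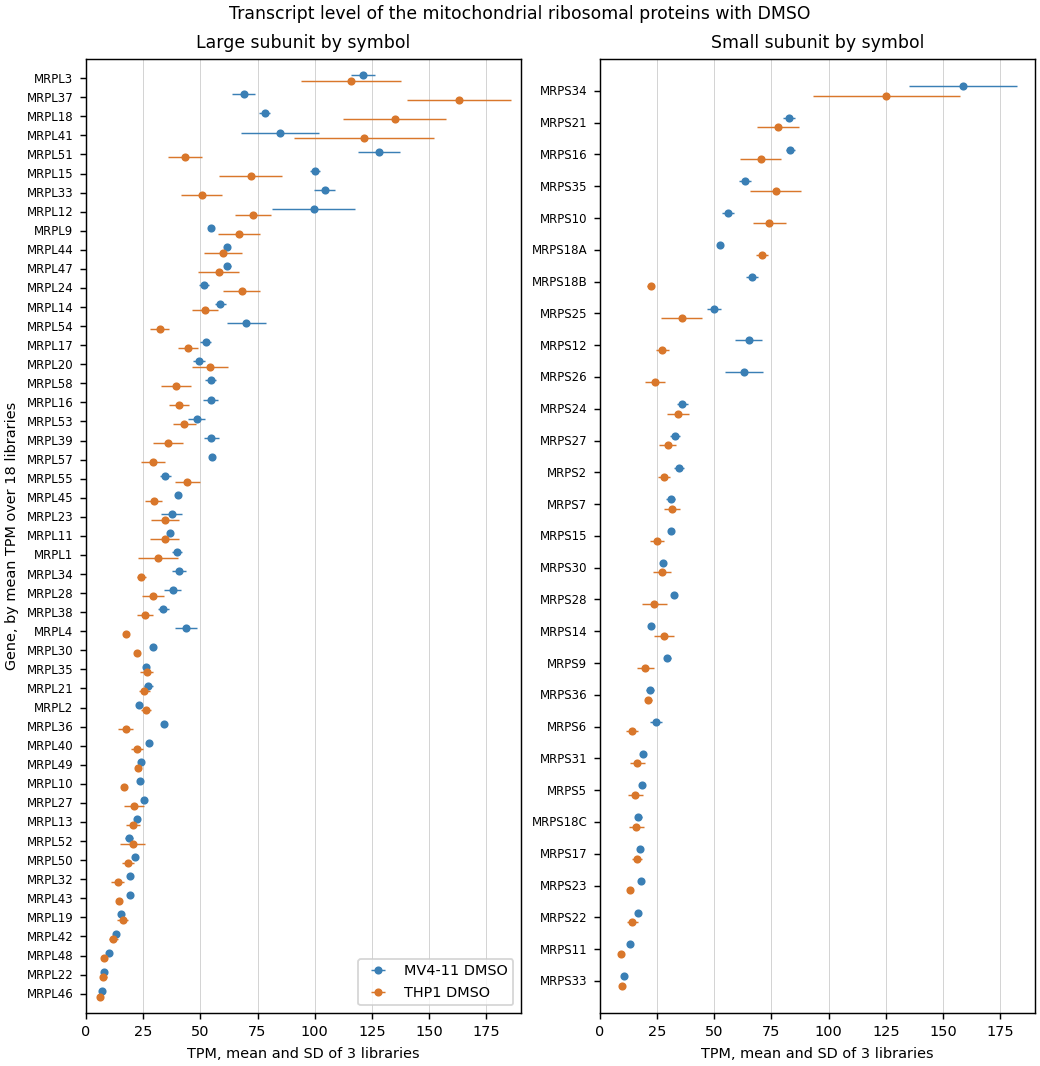
TPM of the 78 members with DMSO, in panels for MRPL and MRPS symbols, with the mean and SD of 3 libraries of MV4-11 (blue) and of THP1 (orange). Levels differed among members far more than between the lines for most of them, with *MRPL37* and *MRPL18* higher in THP1 and *MRPL51* and *MRPL33* higher in MV4-11.

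The order of the members differed little between the lines and hardly with IACS. Spearman's rho of the member means was 0.877 between the lines with DMSO, and 0.983 in MV4-11 and 0.985 in THP1 between DMSO and 24 h of IACS, all across the 78 members, which share libraries and are not independent. The median level was 32.7 TPM in the large and 27.2 in the small subunit, and 29.4 for members with a bacterial homolog as compared with 35.4 for mitochondria-specific members. The mean log2(TPM + 1) of the large subunit minus that of the small subunit was positive in every library, between 0.125 and 0.233. In MV4-11 this distance was 0.170 ± 0.030 under DMSO (SD, n = 3 for each value), 0.147 ± 0.016 after 8 h and 0.134 ± 0.0099 after 24 h, and in THP1 it was 0.217 ± 0.011, 0.216 ± 0.028 and 0.194 ± 0.0035. Its mean was larger in THP1 than in MV4-11 at each treatment, and with the subunits taken by structure it was 0.162 and 0.274 with DMSO. The spread between replicates of a member had a median SD of 0.207 on the log2 scale, from 0.120 for *MRPS23* (mS23) to 0.335 for *MRPL41*, with *MRPS26* (mS26) and *MRPL4* (uL4m), both at 0.319, next to *MRPL41*.

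The cells were checked against markers of their labelled type. *SPI1*, *LYZ*, *HOXA9*, *CD33* and *CSF1R*, genes of myeloid and *KMT2A*-rearranged cells, were expressed in both lines, while *MEIS1*, a *HOXA9* partner, was at 23.6 TPM in MV4-11 and 0.013 TPM in THP1 with DMSO. The T, B, epithelial, stromal and erythroid markers *CD3E*, *MS4A1*, *EPCAM*, *COL1A1* and *HBB* had means of at most 0.022 TPM. The signal recognition particle RNAs *RN7SL1* and *RN7SL2*, together with *RMRP*, *RPPH1* and *RN7SK*, took between 39.6% and 60.1% of all TPM, with a median of 49.6%, and since TPM sum to a fixed total this share lowers every other gene of a library. In the IACS comparisons the median log2 fold change of all genes was 0.06 at 8 h and 0.08 at 24 h in MV4-11, and −0.12 at both times in THP1. Differences are therefore given as fitted on the deposited values and also relative to the median of all genes. TPM keep no read depth, so the depth of each library is unknown. In bulk RNA, fewer cells of a kind and less RNA per cell cannot be told apart.

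The family mean varied between replicates as well as between treatments. In MV4-11, the mean log2(TPM + 1) of the 78 members was 5.19, 5.22 and 5.23 with DMSO, 5.04, 5.04 and 5.41 at 8 h, and 5.004, 4.96 and 5.29 at 24 h. In THP1 it was 5.13, 4.98 and 4.74 with DMSO, 4.87, 5.07 and 4.57 at 8 h, and 4.76, 4.79 and 4.46 at 24 h. Replicate 3 was the highest of its group in all 3 groups of MV4-11 and the lowest in all 3 groups of THP1, and treated and control values overlapped in THP1 and, through replicate 3, in MV4-11. Within each replicate number of THP1, the value at 24 h was below those with DMSO and at 8 h. The share of the noncoding RNAs moved with this in 5 of 6 groups: it was 39.6% and 42.9% in the replicate 3 libraries of MV4-11 at 8 h and 24 h, the lowest of their groups, and 55.8%, 60.03% and 60.1% in those of THP1, the highest of their groups. In MV4-11 with DMSO the share was 49.7% in replicate 3, the highest of that group, although the family mean was highest there too. The part of this share in the members' values was not tested beyond the rescaling given next.

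Rescaling each library by the median of its gene ratios reduced the spread between replicates of a member, from a median SD of 0.207 to 0.137 on the log2 scale. The SD of the family mean rose in MV4-11 with DMSO, from 0.022 to 0.090, and at 24 h, from 0.177 to 0.201. It fell in MV4-11 at 8 h and in every group of THP1. The family means were then 5.10, 5.17 and 5.28 with DMSO, 5.10, 4.99 and 5.10 at 8 h, and 4.88, 4.84 and 5.21 at 24 h in MV4-11. In THP1 they were 4.93, 4.90 and 4.93 with DMSO, 5.02, 4.92 and 4.90 at 8 h, and 4.83, 4.74 and 4.80 at 24 h. After rescaling, every THP1 library at 24 h lay below every THP1 library with DMSO or at 8 h, whereas in MV4-11 replicate 3 at 24 h still overlapped the DMSO libraries.

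**Figure D2:**
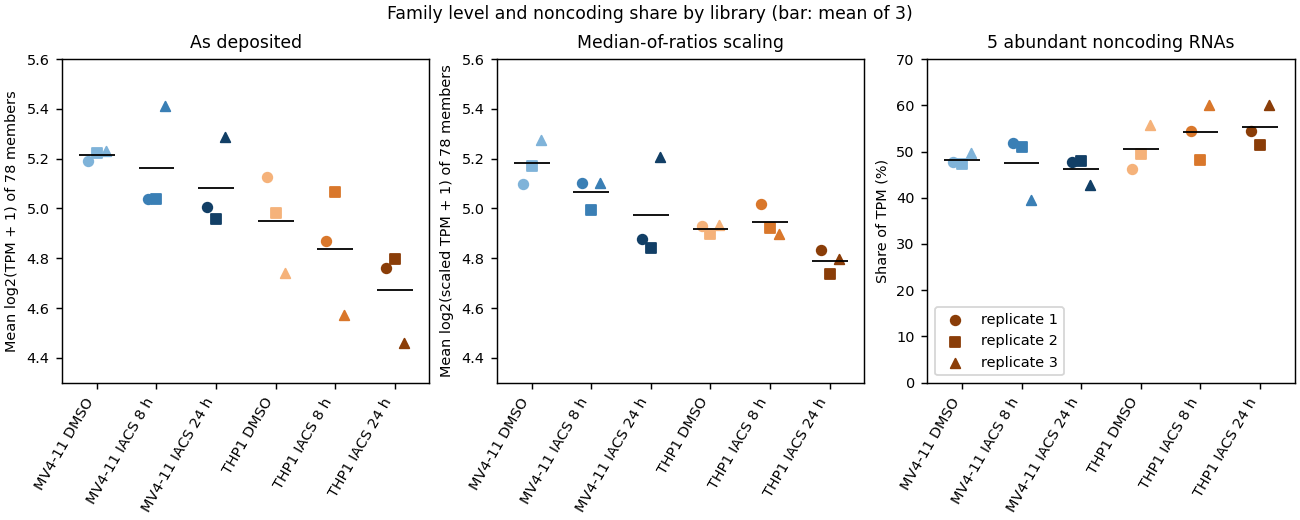
Mean log2(TPM + 1) of the 78 members in each library as deposited and after median-of-ratios scaling, and the share of TPM held by 5 noncoding RNAs (%), with marker shapes for the replicates and bars for the mean of 3. Where replicate 3 of THP1 had a noncoding share of 55.8% to 60.1%, its family mean as deposited was the lowest of its group.

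To ask whether inhibition of complex I changed RNA of the mitoribosome, each member was tested with limma on log2(TPM + 1) over all genes, and called at a Benjamini-Hochberg adjusted p under 0.05 with a fold change beyond 1.5. With 8 h of IACS in MV4-11, the members lay slightly below other genes: their median log2 fold change was −0.03, or −0.10 relative to all genes, and 69 of 78 lay below the median of all genes. The relative median was −0.05 without DMSO replicate 3. None was called, with 0.0148% of 13542 genes called in either direction. At an unadjusted p under 0.05, 1 member was lower and 0 were higher, against 0.997% and 3.39% of all genes, and 1 member had all treated libraries below all DMSO libraries, against 1.65% of all genes. With median-of-ratios scaling, 8 members (10.3%) were lower at an unadjusted p under 0.05, against 6.36% of all genes, and 19 (24.4%) had all treated libraries below all DMSO libraries, against 11.1%. A Kruskal-Wallis test of the 3 libraries against 3 called 0 members at an unadjusted p and the same fold (0.532% of genes). The member with an unadjusted p under 0.05 in the deposited values was *MRPL12* (bL12m), the stalk protein that recruits translation factors and is also known to bind the mitochondrial RNA polymerase. Its TPM was 85.6, 120.1 and 93.1 with DMSO and 56.6, 71.6 and 93.7 at 8 h, so that the groups overlapped, with a log2 difference of −0.44 ± 0.18 (SE, limma adjusted p = 0.98). *MRPS34* (−0.22) and *MRPL44*, an RNase III-like protein of the large subunit (−0.21), came next, and the values furthest up were *MRPL10* (0.12), *MRPL2* (0.11) and *MRPS14* (0.09).

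In THP1 at 8 h, the family stood where other genes stood. The median log2 fold change was −0.11, or 0.01 relative to all genes, and 35 of 78 members lay below the median of all genes. It ranged from −0.02 to 0.06 relative to all genes with 1 library left out. None was called (0.0144% of 13928 genes), and none had an unadjusted p under 0.05 in limma, against 2.11% of all genes in either direction. No member had all 3 treated libraries on 1 side of all 3 DMSO libraries, a pattern found in 0.704% (higher) and 4.06% (lower) of genes. The lowest value was that of *MRPL33* (bL33m), with 60.7, 47.5 and 43.5 TPM with DMSO and 40.7, 45.8 and 33.1 at 8 h. Its log2 difference was −0.33 ± 0.16 (SE, limma adjusted p = 0.94). *MRPS18C*, the closest homolog of the bacterial S18 protein, was at −0.31 and *MRPL46* at −0.24, and the highest values were those of *MRPS18B* (0.10), *MRPL54* (0.02) and *MRPS18A* (0.01).

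At 24 h the members of MV4-11 lay lower than other genes as a group. The median log2 fold change was −0.13, or −0.21 relative to all genes, and 74 of 78 members lay below the median of all genes. Without replicate 3 at 24 h the relative median was −0.33, and without replicate 2 at 24 h it was −0.13. None was called by limma, with 0.0886% of genes called, and a Kruskal-Wallis test at an unadjusted p and the same fold called none (1.81% of genes). At an unadjusted p under 0.05, 10 members (12.8%) were lower and 1 (1.28%) was higher, against 2.36% and 9.66% of all genes. All treated libraries lay below all DMSO libraries in 15 members (19.2%) and above them in 2 (2.56%), against 5.26% and 19.4% of all genes. With median-of-ratios scaling, 20 members (25.6%) had all treated libraries below all DMSO libraries, against 12.6% of all genes.

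The member of MV4-11 with the smallest p at 24 h was *MRPS28* (bS1m), a small-subunit protein named after a bacterial homolog. It was at 32.4, 31.6 and 33.1 TPM with DMSO, 29.7, 27.7 and 33.9 at 8 h, and 23.1, 22.9 and 26.2 at 24 h. All 3 libraries at 24 h were below all others of the line, and the log2 fold change was −0.42 ± 0.11 (SE, limma adjusted p = 0.17). With median-of-ratios scaling it was −0.50 (adjusted p = 0.027 at any fold), and 4 other members, *MRPS33*, *MRPL13*, *MRPL3* and *MRPL44*, were then also lower at an adjusted p under 0.05 with folds under 1.5, as were 1.52% of all genes. *MRPL24* (uL24m) was at −0.38 ± 0.15 (SE, limma adjusted p = 0.33). *MRPL15* (uL15m) was similar, with 101.7, 97.5 and 101.2 TPM with DMSO and 72.1, 72.9 and 90.8 at 24 h, a log2 difference of −0.35 ± 0.14 (SE, limma adjusted p = 0.33).

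Against the direction of the family, *MRPL10* was the highest member of MV4-11 at 24 h. This protein (uL10m) is the base on which the copies of *MRPL12* protein are mounted to form the stalk. It was at 23.7, 23.7 and 23.3 TPM with DMSO, 22.7, 24.0 and 31.0 at 8 h, and 29.7, 28.5 and 32.5 at 24 h. The 24 h and DMSO groups did not overlap, and the log2 fold change was 0.34 ± 0.13 (SE, limma adjusted p = 0.30). *MRPL12* itself was at 73.8, 87.4 and 74.9 TPM at 24 h, a log2 difference of −0.33 (limma adjusted p = 0.50). *MRPS25* (0.16) and *MRPL34* (0.13) were the next highest.

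THP1 cells at 24 h had the lowest deposited levels of the family. The median log2 fold change was −0.26, or −0.14 relative to all genes, and 68 of 78 members lay below the median of all genes. None was called with the unblocked fit (0.0431% of genes). At an unadjusted p under 0.05, 16 members (20.5%) were lower and 0 were higher, against 7.12% and 1.49% of all genes, and all treated libraries lay below all DMSO libraries in 20 members (25.6%), against 10.2% of all genes, and above them in 0, against 3.32%. Samples with the same replicate number deviated together in this comparison, with correlations of 0.146 to 0.324. With the replicate number as a block, 2 members were called lower, *MRPL12* and *MRPL4*, with 1.73% of all genes called lower, and 29 members (37.2%) were lower at any fold, against 11.1% of all genes. At any fold, 9 members (11.5%) were lower with median-of-ratios scaling, against 2.02% of all genes, and 19 (24.4%) with the block and this scaling together, against 8.21%. Past the fold of 1.5, median-of-ratios scaling called *MRPL12* alone (0.352% of genes called lower), and a Kruskal-Wallis test at an unadjusted p with the same fold took *MRPL12* and *MRPL4* (1.31% of genes lower).

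*MRPL12* had the largest difference at 24 h in THP1. It was at 71.5, 81.3 and 66.2 TPM with DMSO, 74.6, 74.5 and 60.3 at 8 h, and 45.7, 57.9 and 31.7 at 24 h. Every 24 h library was below every other THP1 library, and the 8 h and DMSO libraries overlapped. The log2 fold change from DMSO was −0.72 ± 0.20 (SE, limma adjusted p = 0.41), and −0.72 ± 0.11 (adjusted p = 0.0043) with the replicate block. The gene lies on chromosome 17 (81703367 to 81707517, plus strand, GENCODE 44), and 69.5% of its exon bases are shared with a read-through transcript, so its reads could be divided between the 2.

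*MRPL4*, whose protein (uL4m) reaches into the exit tunnel, followed. It was at 18.6, 18.2 and 15.9 TPM with DMSO, 16.4, 20.4 and 13.0 at 8 h, and 10.9, 14.2 and 7.53 at 24 h. The 24 h libraries were below the DMSO libraries, and the log2 fold change was −0.68 ± 0.21 (SE, limma adjusted p = 0.49), or −0.68 ± 0.12 (adjusted p = 0.0064) with the replicate block. *MRPL20* (bL20m), which binds the large-subunit rRNA, was at 58.5, 59.1 and 45.0 TPM with DMSO and 37.9, 40.8 and 29.8 at 24 h. Its log2 difference was −0.57 ± 0.18 (SE, limma adjusted p = 0.46). Its 24 h libraries too were all below the DMSO libraries, and with the replicate block it passed the adjusted p (0.0031) but not the fold of 1.5. *MRPL33*, *MRPL45* and *MRPS27* were the highest members, at 0.06, 0.05 and −0.02.

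**Figure D3:**
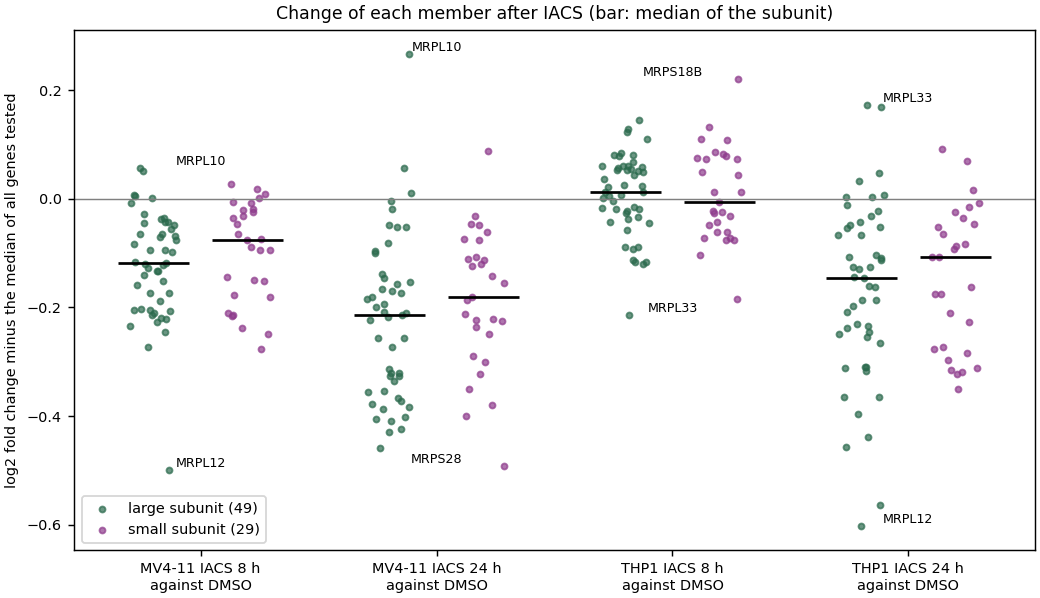
Log2 fold change of each member minus the median of all genes, for IACS at 8 h and 24 h against DMSO in both lines, with large-subunit members in green, small-subunit members in purple and a bar at each subunit's median. At 24 h both subunit medians lie below zero in both lines, at −0.21 and −0.18 in MV4-11 and −0.15 and −0.11 in THP1, and the points of the 2 subunits overlap throughout.

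Large and small subunits had similar medians in every comparison with IACS. Relative to all genes, the median log2 difference of the large and small subunit was −0.12 and −0.08 at 8 h in MV4-11, −0.21 and −0.18 at 24 h in MV4-11, 0.01 and −0.01 at 8 h in THP1, and −0.15 and −0.11 at 24 h in THP1. These are descriptions over members that share libraries, and no test was made of the difference. Members with a bacterial homolog and mitochondria-specific members had medians at 24 h of −0.22 and −0.17 in MV4-11 and −0.17 and −0.07 in THP1. In THP1 at 24 h, 43 of 45 members with a bacterial homolog and 23 of 31 mitochondria-specific members lay below the median of all genes, and 13 and 2, respectively, had an unadjusted p under 0.05, all lower, where 7.12% of all genes were lower by that rule. The difference between the classes was not tested. The classes share control libraries across the 2 times of a line, so the 8 h and 24 h values are not independent of each other. For the 37 members without exon overlap with another gene, the medians at 24 h were −0.22 in MV4-11 and −0.13 in THP1. For the 41 members with overlap they were −0.21 and −0.16, and an effect of overlap was not tested. The 20 members with the YY1 letters were at −0.14 and −0.11, and the 49 without at −0.21 and −0.15, in MV4-11 and THP1 at 24 h.

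The 2 times were also compared with each other, which does not use the DMSO libraries. From 8 h to 24 h, the median log2 difference relative to all genes was −0.09 in MV4-11 and −0.16 in THP1, with 66 and 68 of 78 members below the median of all genes. The value in MV4-11 was −0.22 without replicate 3 and −0.04 without replicate 2 at 24 h. In MV4-11 no gene at all was called (0%), and 3 members (3.85%) had an unadjusted p under 0.05, all lower, against 0.775% of all genes lower. In THP1 limma called no member (0.00718% of genes), with 7 lower and 1 higher at an unadjusted p under 0.05, against 2.3% and 2.69% of all genes. The number lower at an unadjusted p was 29 (37.2%) with the replicate block, against 10.2% of all genes, and 33 (42.3%) with median-of-ratios scaling, against 11.8%. All 24 h libraries lay below all 8 h libraries in 4 members (5.13%) as deposited and in 31 (39.7%) after scaling, against 2.58% and 13.7% of all genes. The replicate numbers paired the THP1 samples here as well, and the block called 1 member, *MRPL12*, lower (log2 difference −0.65, adjusted p = 0.014), with 0.373% of all genes called lower. Median-of-ratios scaling called *MRPL12* (−0.65, adjusted p = 0.039) and *MRPL4* (−0.59, adjusted p = 0.036), with 0.251% of genes called lower. *MRPL33* went the other way in THP1, at 54.3, 50.0 and 52.2 TPM at 24 h, all above the 8 h libraries given above (log2 difference 0.39 ± 0.16 SE, limma adjusted p = 0.94). In MV4-11 the lowest from 8 h to 24 h were *MRPS28* (−0.32), *MRPL13* (−0.29) and *MRPL11* (−0.29).

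The effect of IACS differed between the lines past the call rule for 0 members. The difference (effect in THP1 minus effect in MV4-11) was tested in 1 fit of all 18 libraries, which called 0 of 78 members at either time (0.00708% of 14117 genes at each). At an unadjusted p under 0.05 without the replicate block, 0 members differed at 8 h and 1 at 24 h, against 3.16% and 7.1% of all genes. With the replicate block and no scaling, 11 members (14.1%) were lower and 0 higher at 24 h by that rule. The share of all genes in the blocked fit is not given here, so this count cannot be set against it. With the replicate block and median-of-ratios scaling together, *MRPL44* was higher (0.36, limma adjusted p = 0.028) and *MRPS5* lower (−0.26, limma adjusted p = 0.048) at 24 h at folds under 1.5, as were 1.58% and 2.01% of all genes. The member with an unadjusted p under 0.05 at 24 h without block or scaling was *MRPL10*. It was at 16.9, 16.4 and 16.3 TPM with DMSO and 15.3, 17.0 and 11.6 at 24 h in THP1. Its effect was thus −0.18 there and 0.34 in MV4-11. The difference was −0.53 ± 0.19 (SE, limma adjusted p = 0.67). *MRPL55* (−0.51) and *MRPL4* (−0.50) came next, and *MRPL12* had a difference of 0.37 at 8 h and −0.39 at 24 h. The median difference of the members was −0.06 at 8 h and −0.12 at 24 h as deposited, and 0.10 and 0.07 relative to all genes (−0.01 at 24 h without the MV4-11 replicate 2 at 24 h). Its sign thus depended on the reference, and with median-of-ratios scaling it was 0.14 and 0.10.

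**Figure D4:**
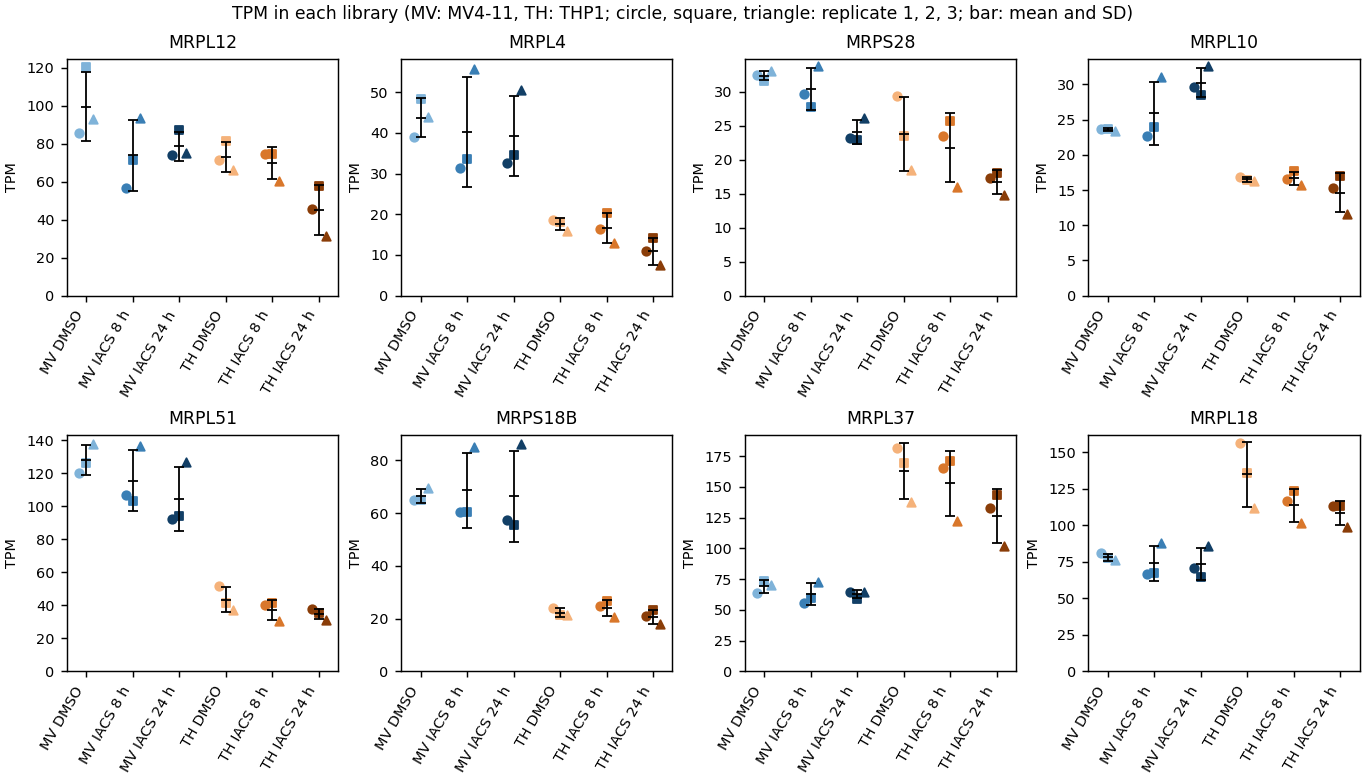
TPM in each library of 8 members (*MRPL12*, *MRPL4*, *MRPS28*, *MRPL10*, *MRPL51*, *MRPS18B*, *MRPL37* and *MRPL18*) by line and treatment, with the mean and SD of 3. *MRPL12* in THP1 at 24 h lies at 31.7 to 57.9, below the other THP1 libraries, while *MRPL51* and *MRPL37* separate the lines at all times.

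The largest differences in the family were between the lines. With DMSO, 12 of 78 members (15.4%) were called lower and 2 (2.56%) higher in THP1 than in MV4-11, while 17.2% of all 14117 genes were called lower and 19.7% higher. The share called lower was thus near that of all genes, and the share called higher was well under it. The median log2 fold change was −0.22, or −0.23 relative to all genes, and 62 of 78 members lay below the median of all genes. At any fold, 25 members (32.1%) were lower and 4 (5.13%) higher, against 24% and 26% of all genes. In 34 members (43.6%) every THP1 library lay below every MV4-11 library and in 9 (11.5%) above, against 30.9% and 29.8% of all genes. The subunits had similar medians relative to all genes, −0.21 (large) and −0.23 (small), with 8 of 49 and 4 of 29 members called lower and 2 and 0 called higher. The mean of the large minus that of the small subunit nevertheless did not overlap between the lines with DMSO. It ran from 0.135 to 0.190 in MV4-11 and from 0.205 to 0.226 in THP1. By structure these ranges were 0.135 to 0.179 and 0.266 to 0.278, and the difference was not tested.

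**Figure D5:**
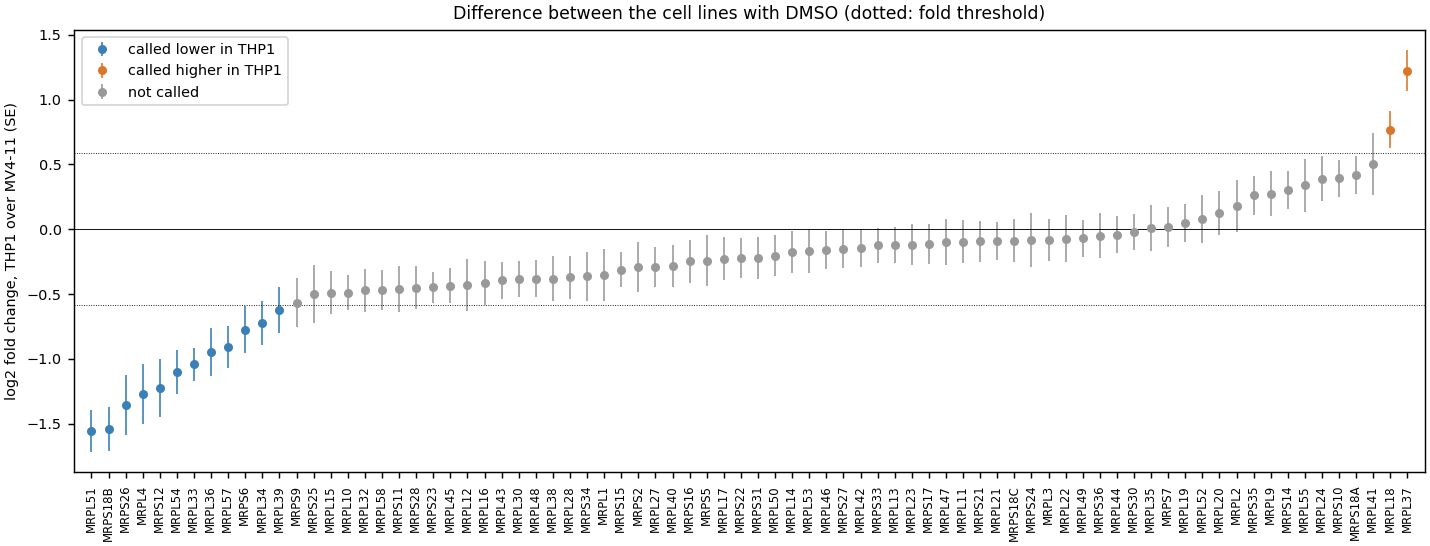
Log2 fold change of THP1 over MV4-11 with DMSO for the 78 members in rank order, with the SE, called members in color and dotted lines at the fold threshold. From *MRPL51* at −1.56 to *MRPL37* at 1.22, most members lie below zero.

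*MRPL51* (mL51), a mitochondria-specific protein of the large subunit whose gene carries the YY1 letters just after its start, was the lowest in THP1. It was at 120.1, 126.5 and 138.0 TPM in MV4-11 and 51.7, 41.1 and 37.0 in THP1, a log2 difference of −1.56 ± 0.16 (SE, limma adjusted p = 1.8e-07). The groups lay far apart, although 27.6% of its exon bases are shared with *NCAPD2*. *MRPS18B* (mS40) was at 64.9, 64.98 and 69.7 TPM in MV4-11 and 24.1, 21.3 and 21.2 in THP1, a log2 difference of −1.54 ± 0.17 (SE, limma adjusted p = 3.6e-07), and its exons overlap no other gene. Its paralogs were not called. *MRPS18A*, which carries the same 8 letters near its start, was at 51.6, 53.1 and 53.4 TPM in MV4-11 and 72.0, 72.6 and 68.0 in THP1, a log2 difference of 0.42 ± 0.15 (SE, limma adjusted p = 0.023) that stayed under the fold of 1.5, and 50.9% of its exon bases are shared with *RSPH9*. *MRPS18C* was at 16.8 ± 1.52 and 16.0 ± 3.2 TPM (SD, n = 3), a log2 difference of −0.09. The 3 proteins occupy different places, *MRPS18A* in the large and the others in the small subunit.

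Of the 12 members called lower in THP1, 6 were among the 45 classed with a bacterial homolog and 6 among the 31 classed as mitochondria-specific. *MRPS12* (uS12m), which lines the decoding centre, was at 59.9, 63.5 and 71.7 TPM in MV4-11 and 28.03, 29.8 and 24.2 in THP1 (log2 difference −1.22 ± 0.22 SE, limma adjusted p = 0.00016). *MRPL4* at the exit tunnel was at 39.0, 48.4 and 43.9 TPM in MV4-11 and, as given above, at 15.9 to 18.6 in THP1 (log2 difference −1.27 ± 0.23 SE, limma adjusted p = 0.000145). Neither gene's values overlapped between the lines. *MRPL33* was at 108.8, 104.5 and 99.7 TPM in MV4-11, and its log2 fold change was −1.04 ± 0.13 (SE, limma adjusted p = 1.9e-06). Of the mitochondria-specific proteins, *MRPS26* was at 54.4, 63.9 and 70.8 TPM in MV4-11 and 26.8, 26.6 and 19.1 in THP1 (log2 difference −1.35 ± 0.23 SE, limma adjusted p = 7.2e-05). *MRPL54* was at 62.4, 69.0 and 79.0 in MV4-11 and 35.6, 33.4 and 27.5 in THP1 (−1.10 ± 0.17 SE, limma adjusted p = 2.1e-05). The other 5 called members were *MRPL36* (−0.95), *MRPL57* (−0.91), *MRPS6* (−0.77), *MRPL34* (−0.73) and *MRPL39* (−0.62).

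The 2 members called higher in THP1 were both large-subunit proteins. *MRPL37*, a mitochondria-specific protein, was at 63.5, 73.5 and 69.97 TPM in MV4-11 and 182, 169.5 and 137.5 in THP1, a log2 difference of 1.22 ± 0.16 (SE, limma adjusted p = 3e-06). *MRPL18*, of the central protuberance, was at 80.7, 77.3 and 76.2 TPM in MV4-11 and 156.7, 136.2 and 111.8 in THP1, a log2 difference of 0.77 ± 0.15 (SE, limma adjusted p = 0.00023). In both genes the lowest THP1 library was above the highest MV4-11 library. *MRPL41* came next, at 65.7, 90.8 and 97.8 TPM in MV4-11 and 140.6, 137.8 and 86.3 in THP1, a log2 difference of 0.50 (limma adjusted p = 0.092). Single libraries moved this value in both directions. Without the THP1 DMSO replicate 3 the log2 fold change was 0.73 and the member was called, and without the MV4-11 DMSO replicate 1 it was 0.33. *MRPS18A*, given above, *MRPS10* (0.39, limma adjusted p = 0.031) and *MRPL24* (0.39, limma adjusted p = 0.067) followed and were not called.

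*MRPS30*, *MRPS36*, *MRPL58*, *MRPS24*, *MRPL46* and *MRPS11* were not called in any comparison described here. *MRPS30* and *MRPS36* differed little between the lines (−0.02 and −0.05), and at 24 h of IACS they were at 0.03 and −0.14 in MV4-11 and −0.05 and −0.29 in THP1. *MRPL58* (mL62), a peptidyl-tRNA hydrolase that became a part of the large subunit, was at −0.47 between the lines (limma adjusted p = 0.017), under the fold of 1.5. *MRPS24*, for which a read-through transcript with *URGCP* shares 23.2% of exon bases, was at −0.09. *MRPL46* and *MRPS11*, which start head to head 63 bases apart, were at −0.16 and −0.46 between the lines.

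Genes that act with the mitoribosome were taken from lists of its other proteins, assembly factors, translation factors and RNA-processing factors, and 0 genes of these lists were called for IACS against DMSO by limma. Of 5 mitoribosomal proteins without an MRP symbol, the median log2 difference relative to all genes at 24 h was −0.24 in MV4-11 and −0.19 in THP1, close to that of the members. *AURKAIP1* (mS38) was the lowest of these in THP1 at 24 h, at −0.68. For 27 assembly and rRNA-modification factors the medians were −0.11 and −0.11, and for 17 translation factors −0.10 and −0.10. For 17 factors of mitochondrial DNA transcription and RNA processing they were −0.22 and −0.17. Between the lines, the assembly factors had 5 members called lower in THP1, *MRM3*, *MPV17L2*, *YBEY*, *GTPBP6* and *TRUB2*, and 1 called higher, *NGRN*, where 17.2% of all genes were called lower and 19.7% higher, so that the share lower was near that of all genes.

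The subunits of complex I, the target of IACS, gave values close to those of the family, and cytosolic ribosomal proteins did not. The 37 nuclear-encoded subunits of complex I had medians relative to all genes of −0.26 and −0.17 at 24 h in MV4-11 and THP1, with 0 called. The 76 cytosolic ribosomal proteins were at 0.06 and 0.14, with 0 called. Between the lines the order was different, with the cytosolic ribosomal proteins at −0.45 (27 of 76 called lower, 0 higher) and complex I at −0.11 (7 of 37 called lower, 1 higher), as compared with −0.23 for the members. Of all genes, 17.2% were called lower and 19.7% higher, so that the share of complex I called lower was near that of all genes. Of 8 tested nuclear regulators of mitochondrial genes, *MYC*, which is known to drive ribosome genes, was at 200.7 ± 7.91 TPM in MV4-11 and 77.4 ± 6.53 in THP1 with DMSO (SD, n = 3 each), a log2 difference of −1.37 (limma adjusted p = 6.3e-06). *YY1* was at 39.5 ± 1.28 and 48.0 ± 3.96 TPM (SD, n = 3 each; log2 fold change 0.27, limma adjusted p = 0.074), and the 20 members with its letters had a median between the lines of −0.16, as compared with −0.29 for the 49 members without. The part of these regulators in the members' levels was not tested.

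The ribosomal RNAs of the particle varied widely between libraries. *MT-RNR2*, the large-subunit rRNA, was at 2144, 1647 and 3649 TPM with DMSO and 331, 1257 and 180 at 24 h in THP1. *MT-RNR1*, the small-subunit rRNA, was at 375, 302 and 746 TPM with DMSO and 55.1, 272 and 30.7 at 24 h. All 3 libraries at 24 h were below the DMSO libraries for both rRNAs, with log2 fold changes of −2.47 and −2.48, but neither was called (unadjusted p = 0.0005 and 0.0012 in limma over all genes). At 8 h in THP1, *MT-RNR2* ranged from 1640 to 1816 TPM and *MT-RNR1* from 294 to 345, and both overlapped the DMSO libraries. In MV4-11 *MT-RNR1* ranged from 259 to 780 TPM with DMSO and from 330 to 1579 at 24 h. *MT-RNR2* ranged there from 1436 to 3740.5 and from 1659 to 7155. The MV4-11 groups thus overlapped, with both means higher at 24 h. Whether these values follow the amount of rRNA in the cells was not tested.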

How the data were processed

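The authors isolated RNA with RNeasy columns and DNase, made TruSeq v2 libraries, sequenced them on a NovaSeq and mapped reads with CLC Genomics Workbench, per the paper's methods and the labels (human genome GRCh38). The values they deposited are TPM per gene symbol, and 0 sample columns were left out. No 2 of the 18 libraries were identical (153 pairs). The members and the gene lists were chosen with earlier results of these data known. One marker gene is not reported here.

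Here TPM were tested as log2(TPM + 1) with limma 3.58.1 in R 4.3.3 (lmFit, eBayes with a variance trend) on genes whose mean reached 1 TPM, 13542 in the 9 libraries of MV4-11, 13928 in those of THP1 and 14117 over all 18. Fold changes are on that scale, which understates changes of low genes. Calls used a Benjamini-Hochberg adjusted p under 0.05 over all genes tested and a fold beyond 1.5. The p-values of limma set a difference against the spread between libraries within groups, pooled over all groups of the fit. Where nothing is said, adjusted p are limma's. Members named are those with extreme levels or fold changes in a comparison, every called member, and those with a special role; members added for other reasons (such as *MRPL3*, *MRPL13*, *MRPL17*, *MRPS9*, *MRPL16* and *MRPL22*) were chosen after their values were seen. Alternatives were other pseudocounts, filters, scalings, a replicate block, a Kruskal-Wallis test (approximate, since the exact p of 3 libraries against 3 cannot go below 0.10), and each library left out. The calls given as reported used no block. Deviations of same-numbered THP1 libraries correlated at 0.146 to 0.324 for 24 h against DMSO, and at 0.183 to 0.357 against 8 h. Those of MV4-11 for 24 h against 8 h correlated at 0.11 to 0.441 as deposited and 0.089 to 0.422 after scaling. The fit was also run on simulated data with independent noise for each gene. These had no shift shared by the genes of a library, so the run cannot speak for such shifts. Gene positions come from GENCODE 44 and sequences from RefSeq (GRCh38.p14), read with Python 3.11.15.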

Additional observations from a re-analysis of the deposited data

How the results depend on the processing

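Every value here is a log2 difference or a count of members. The medians relative to all genes moved beyond 1 SD of the replicates only without the filter on low values, to −0.072 (THP1 8 h), −0.256 (THP1 24 h), −0.010 and −0.084 (cell line difference at 8 h and 24 h), with more low genes in the median of all genes. In THP1 at 24 h against DMSO, members called lower numbered 0 as reported, 1 with median-of-ratios scaling, 2 with the replicate block, 1 with both, 2 at an unadjusted p, 2 by a Kruskal-Wallis test and 0 with any single library left out, and 1 (*MRPL41*, −0.59) without replicate 3 of every group, an alternative chosen after seeing the data. For 24 h against 8 h in THP1 they numbered 0 as reported, 2 with median-of-ratios scaling, 1 with the replicate block, 2 with both, 1 at an unadjusted p and 1 by a Kruskal-Wallis test. The block changed no other call. Between the lines, 4 members were higher and 25 lower without the fold threshold, and leaving out 1 library gave 2 to 3 higher and 11 to 17 lower, the most without THP1 DMSO replicate 1. With subunits taken by structure, the change in the large minus small subunit was −0.0046 (THP1 24 h) and the difference between the lines 0.112, and the cell line difference at 24 h ranged from 0.0037 to 0.031 with 1 library left out. With 1 library left out, the medians as deposited, not relative to all genes, turned sign at 8 h in MV4-11 (−0.16 to 0.02) and THP1 (−0.23 to 0.03), for 24 h against 8 h in MV4-11 (−0.19 to 0.04) and for the cell line difference at 8 h (−0.17 to 0.07). Relative to all genes they turned at 8 h in THP1 (−0.02 to 0.06) and for the cell line difference at 24 h (−0.01 to 0.18). The change in the large minus small subunit turned at 8 h in THP1 (−0.0097 to 0.015). *MRPS27* in THP1 at 24 h was at 0.107 with median-of-ratios scaling, with or without the block, at 0.118 without the 5 noncoding RNAs, and from −0.106 to 0.0905 with 1 library left out. With a library or replicate 3 left out, the ranges were, at 8 h in MV4-11, −0.020 to 0.202 for *MRPL10*, −0.019 to 0.193 for *MRPL2* and −0.022 to 0.137 for *MRPS14*, at 8 h in THP1 −0.100 to 0.168 for *MRPL54* and −0.092 to 0.101 for *MRPS18A*, and at 24 h in THP1 −0.043 to 0.194 for *MRPL33* and −0.046 to 0.158 for *MRPL45*. For 24 h against 8 h they were −0.027 to 0.325 for *MRPL34* and −0.061 to 0.330 for *MRPL12* in MV4-11, and −0.0054 to 0.234 for *MRPL50* and −0.043 to 0.198 for *MRPL57* in THP1. In the cell line difference at 24 h they were −0.031 to 0.191 for *MRPS35* and −0.0096 to 0.190 for *MRPL13*. The cause of these changes was not tested. TPM keep no counts, so what depth limits is unknown.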
